A study of Homo sapiens with 6 samples.

Results

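Genes that build the centrosome were followed in RPE1 cells before and after depletion of OFD1, a protein of the centriole end and of the satellites around it. The list held 52 genes, taken by symbol. Of these, 24 act in centriole duplication, 11 belong to the pericentriolar matrix, 9 to the appendages or the linker of the centrioles, and 8 encode the subunits of augmin. All 52 were found among the 67130 genes listed, with 1 row each on the main chromosomes.

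The centrosome is a pair of centrioles in a protein matrix. In each cell cycle the kinase PLK4, with STIL and SASS6, starts a new centriole beside each old centriole, and CENPJ and its partners lengthen it. The matrix, laid on scaffolds such as PCNT and CDK5RAP2, holds the gamma-tubulin ring complexes that nucleate microtubules. Augmin carries these ring complexes to the sides of existing spindle microtubules, so that new branches grow there.

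Both groups were hTERT-RPE1-TOShOFD1 cells, a telomerase-immortalized epithelial line of the retinal pigment epithelium. A lentivirus had given these cells a Tet-On cassette for a short hairpin RNA against OFD1 (shOFD1), which doxycycline switches on. The 3 control samples received no doxycycline, and the 3 OFD1-depleted samples received 200 ng/mL for 72 h. All 6 samples carried the cassette, and their labels give the genotype as WT. Samples with doxycycline but another hairpin, or none, were not analysed here, so the loss of OFD1, the drug and the hairpin cannot be told apart as the source of any difference. The study calls these samples biological replicates, without saying whether each was a separate culture or whether the line was 1 clone. The p-values measure the spread between these samples.

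The labels give the tissue as retina, and the extraction note speaks of retinas. The photoreceptor markers SAG, PDE6B, RCVRN and CRX did not bear this out, since all were at 0 in every sample. ARR3, GNAT1, OPN1SW and NRL were at or near 0, and the highest value among them was 0.286 FPKM, for NRL, which was above 0 in all 6 samples. FPKM, fragments per kilobase of transcript scaled to the mapped fragments of the library, is the unit of every level given here. The pigment epithelium markers RPE65, RLBP1, TYR and TYRP1 had means below 1 FPKM. KRT8, KRT18, MITF and OTX2 were present, and none of these passed the test between the groups.

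OFD1 was at 3.34, 3.62 and 3.44 FPKM in the controls and at 0.795, 0.763 and 1.43 FPKM after doxycycline. The depleted mean was 28.7% of the control mean, with a log2 fold change of -1.75 ± 0.26 (SE, n = 3 per group, adjusted p = 0.00085). Fold changes here are differences of log2(FPKM + 0.1), which understate the change of weakly expressed genes, and adjusted p-values come from limma with Benjamini-Hochberg adjustment over the 12025 genes that averaged 1 FPKM or more. The calls use an adjusted p below 0.05.

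A library of the depleted group stood apart from the others. In OFD1-depleted replicate 2, transcripts under 1000 bases had a median 0.42 above the control mean on the log2 scale, and transcripts of 6000 bases or more a median 0.45 below it. The same medians in the other depleted libraries lay between -0.02 and 0.05 for the short class and between -0.08 and 0.03 for the long class. The centrosome genes are long, with a median main transcript of 4991 bases against 3040 bases for all genes tested. In replicate 2, 33 of 51 were at their lowest depleted value, as were 5790 of all 12025 genes tested. The count of genes called lower, in total and by role, is therefore given again without that library and without both samples numbered 2. It is also given after each sample's trend on transcript length was taken out. The last 2 of these checks were chosen after the data were seen.

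Of the 51 centrosome genes that could be tested, 25 fell after OFD1 depletion (49.0%), 26 did not pass and 0 rose, where the same test called 11.9% of all genes lower and 5.07% higher. At an unadjusted p below 0.05 the counts were 31 lower and 0 higher, where 19.1% of all genes were lower and 11.5% higher. The median log2 fold change was -0.58, beside -0.03 for all genes tested. Of the 51, 13 were called lower and fell by at least 1 on the log2 scale, as did 528 of all 12025 genes tested. A negative estimate was found for 47 of the 51, and for 53.7% of all genes.

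The 2 groups did not overlap for 34 of the 51 genes, all lower after depletion. Over all genes, 22.3% did not overlap in the lower direction and 13.8% in the higher. SPICE1, a factor of centriole duplication, missed the filter with 1.11, 0.780 and 0.964 FPKM in controls and 0.915, 0.441 and 1.13 FPKM after depletion, and it was not tested. Against the control mean, 43, 48 and 47 of the 51 genes were lower in OFD1-depleted replicates 1, 2 and 3. Of all 12025 genes tested, 5472, 6816 and 6935 were.

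The count of lower genes was 28 without OFD1-depleted replicate 2, 24 without both samples numbered 2, and 25 with the length trend removed. Over all genes, 1741, 1793 and 1476 were lower in these fits, beside 1429 in the main fit. Removing the length trend moved the median to -0.43. It took PCNT (adjusted p = 0.0966) and TUBGCP4 (adjusted p = 0.065) out of the call and brought in HAUS6 and TUBG1. Leaving out both samples numbered 2 took out CEP152, CNTROB, TUBGCP4 and HAUS5 and brought in TUBG1, TUBGCP2 and CEP250. With no filter on low values 13 were lower, none of them a matrix gene, and at a mean of 5 FPKM or more 11 of the 19 left. Over all genes these fits called 823 of 28501 and 964 of 7883 lower. Of the 12025 genes of the main fit, the fit with no filter called 787 lower. Leaving out 1 control also lowered the count: 16, 16 and 15 genes were lower without control replicate 1, 2 and 3. The count over all genes dropped too, to 904, 1020 and 867. The count was 24 without OFD1-depleted replicate 1 and 19 without replicate 3, beside 1309 and 1051 of all genes. In all 6 fits with 1 sample left out, 14 of the 25 genes kept an adjusted p below 0.05. Of the 1429 lower genes over all genes tested, 771 did, a similar share. Setting every sample to the same total, which moved the median of all genes by -0.14, gave 29 lower and 0 higher centrosome genes, beside 1988 lower and 268 higher of all genes. Without that step 1429 and 610 of all genes were called, and with quantile normalization 1311 and 1093.

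**Figure D1:**
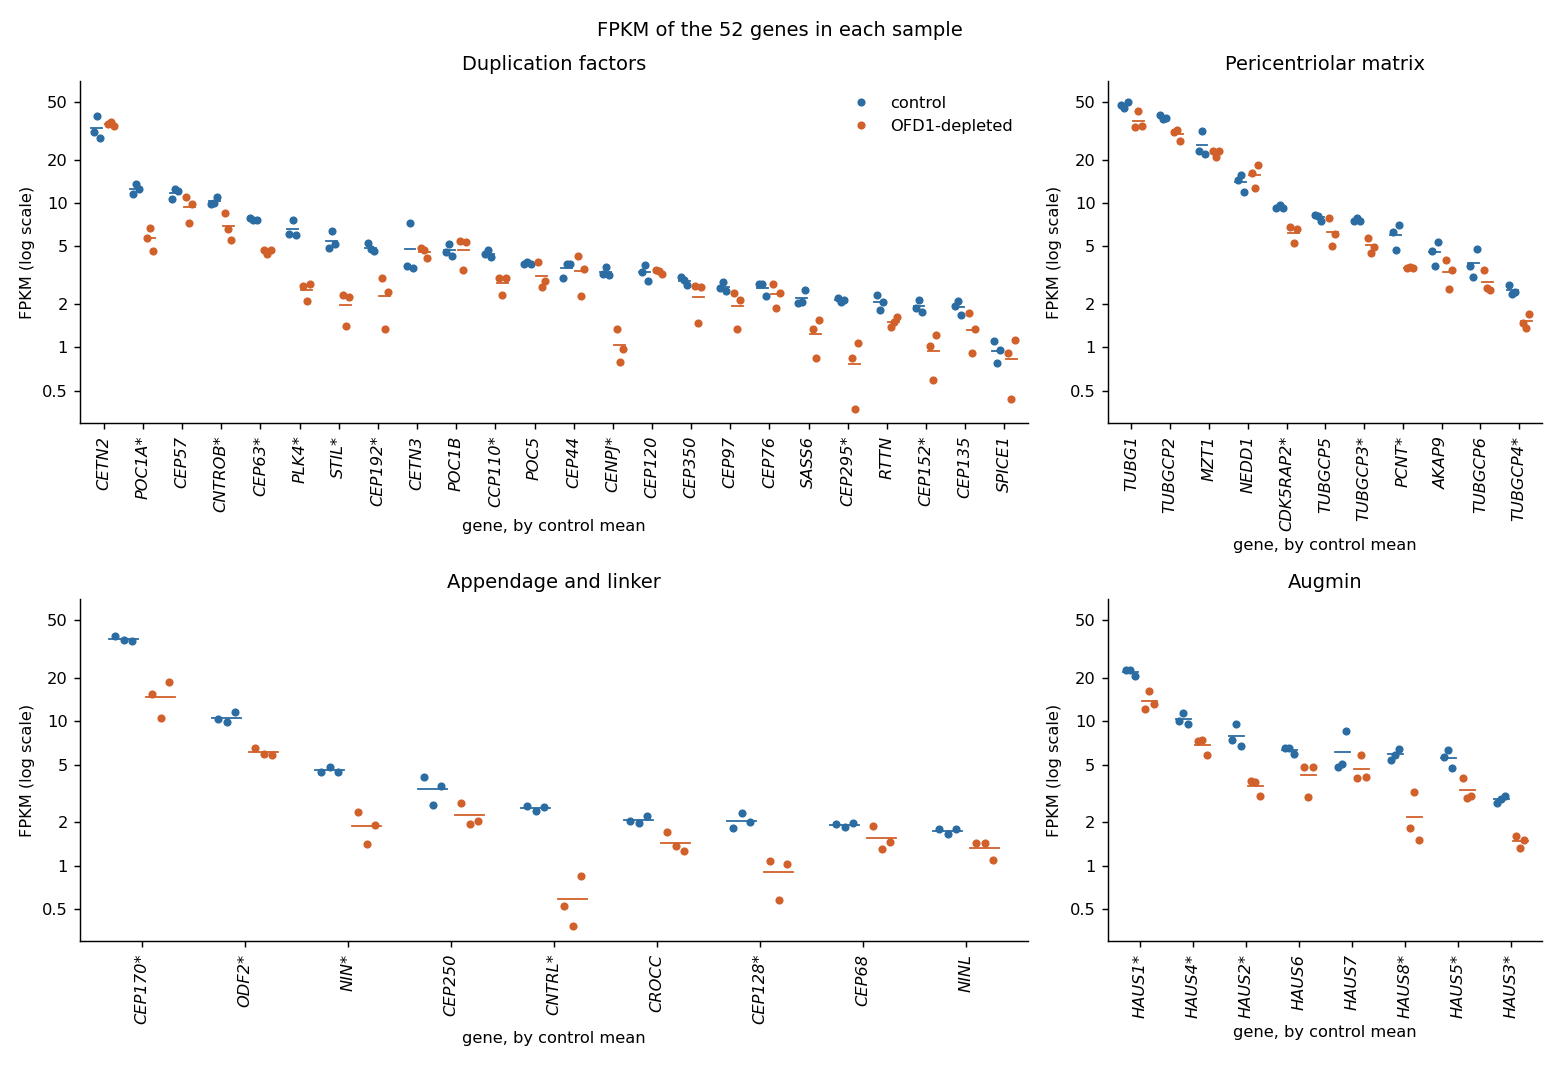
FPKM on a log scale (vertical axis) of each of the 52 genes (horizontal axis) in the 3 control samples (blue) and the 3 OFD1-depleted samples (orange), in 4 panels by role, with the mean as a short line and an asterisk on genes called lower. Orange points lie wholly below the blue points for 34 of the 51 genes tested, while CETN2, NEDD1 and POC1B overlap.

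Cells in division express many of these genes most, and the proliferation markers moved in the same direction. MKI67, TOP2A, CCNB1, PCNA and MCM2 all fell (5 of 5), with log2 fold changes from -1.93 to -0.81. Their summed level was 260 to 299 FPKM in controls and 121 to 131 FPKM after depletion. Their part in the change of the centrosome genes was not tested. In bulk RNA, fewer dividing cells and less RNA of a gene per cell cannot be told apart.

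Promoter windows were read for 48 of the 52 genes from RefSeq (GRCh38.p14), each from 250 bases before to 50 bases after an annotated start, on the strand of the gene. CENPJ was matched under its RefSeq symbol CPAP. Since many of the genes fell, 3 motifs of cell cycle promoters were searched on both strands. These were the CHR word TTTGAA, bound by MuvB complexes, the E2F words TTTCCCGC, TTTCGCGC, TTTGCCGC and TTTGGCGC, and the CCAAT box, bound by NF-Y. None of these words contains another. An E2F word stood in a window of 11 of the 48 genes (22.9%), against 4.0% of all genes with a window and 7.2% of those tested. A CHR word stood in 14 (29.2%), against 18.2% and 13.6%. A CCAAT box stood in 19 (39.6%), against 39.7% and 43.7%. Counted by window, 16.7% of the 66 windows held an E2F word and 22.7% a CHR word, where 3.3% and 15.2% of all 35116 windows did. Within the list the motifs did not follow the calls: E2F words stood in 6 of 24 lower genes and 5 of 24 others, and CHR words in 6 and 8. A match is a description of letters and not of a bound factor.

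Below are 130 bases from each of 4 promoters, picked after the values were seen to show a lower gene with a CHR word (CEP295), a lower gene with an E2F word (ODF2), a gene with both that missed the threshold (CEP57), and a gene with neither that missed it too (CETN2). Capitals mark the words, CCAAT boxes included, in either orientation. The stretches lie at chr11:93661552-93661681 on the plus strand, chr9:128455876-128456005 on the plus strand, chr11:95789835-95789964 on the plus strand and chrX:152830758-152830887 on the minus strand. None overlaps an exon in GENCODE v44. That of ODF2 lies in an intron of the gene, before an internal annotated start, that of CEP57 lies in an intron of FAM76B on the other strand, and the other 2 are intergenic. They end at the base before the start, except for CEP57, where the stretch ends 50 bases before it.
CEP295: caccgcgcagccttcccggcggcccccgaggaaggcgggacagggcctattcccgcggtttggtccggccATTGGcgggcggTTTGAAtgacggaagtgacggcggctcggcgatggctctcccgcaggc
ODF2: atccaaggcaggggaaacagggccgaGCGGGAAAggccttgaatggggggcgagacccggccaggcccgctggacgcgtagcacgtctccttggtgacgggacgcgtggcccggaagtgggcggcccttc
CEP57: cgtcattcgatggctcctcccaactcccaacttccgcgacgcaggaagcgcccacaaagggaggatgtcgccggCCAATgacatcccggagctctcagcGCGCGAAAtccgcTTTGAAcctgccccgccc
CETN2: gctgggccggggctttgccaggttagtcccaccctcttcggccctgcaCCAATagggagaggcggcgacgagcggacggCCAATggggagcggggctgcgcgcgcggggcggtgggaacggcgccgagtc

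Among the duplication factors, 10 of 23 tested fell, with a median log2 fold change of -0.53, where 11.9% of all genes tested fell. The genes that start a centriole lay lower than those that lengthen it: 5 of 8 initiation genes fell (median -0.90), and 4 of 12 elongation and conversion genes (median -0.35). That contrast was not tested. In OFD1-depleted replicates 1, 2 and 3 the initiation medians against the control mean were -0.69, -1.41 and -0.66. Those of the elongation and conversion genes were -0.04, -0.57 and -0.23. All 8 initiation genes were lowest in replicate 2, as were 6 of the 12 others. Without both samples numbered 2 the medians were -0.68 and -0.14, with 4 of 8 and 3 of 12 lower. PLK4, the kinase that starts duplication (chromosome 4, 127880893 to 127899224 on GRCh38), was at 6.08, 7.59 and 6.05 FPKM in controls and at 2.67, 2.09 and 2.76 FPKM after depletion. The groups lay far apart, and PLK4 fell by 1.36 ± 0.17 on the log2 scale (SE, n = 3 per group, adjusted p = 0.00037). STIL, which PLK4 phosphorylates at the site of the new centriole, was at 4.87, 6.45 and 5.18 FPKM and then at 2.30, 1.41 and 2.24 FPKM. Its log2 fold change was -1.45 ± 0.22 (SE, adjusted p = 0.00102). SASS6 forms the cartwheel that sets the symmetry of the centriole. It was at 2.04, 2.06 and 2.51 FPKM in controls and 1.35, 0.848 and 1.54 FPKM after depletion, and although the groups did not overlap, its change missed the threshold (-0.81 ± 0.26, SE, adjusted p = 0.0555).

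The other initiation genes gave a mixed picture. CEP192 (-1.15 ± 0.25, SE, adjusted p = 0.0098), CEP152 (-1.0003 ± 0.29, SE, adjusted p = 0.0363) and CEP63 (-0.72 ± 0.13, SE, adjusted p = 0.00381) fell. All 3 sit around the old centriole and recruit the kinase. CEP57 (-0.35, 95% interval -0.72 to 0.02) and CEP135 (-0.53, 95% interval -1.11 to 0.06) did not pass. CEP152 lost its call without OFD1-depleted replicate 1 and without each control, with an adjusted p of up to 0.116. It was also lost without both samples numbered 2 (-0.66, adjusted p = 0.0923). PLK4, STIL, CEP192 and CEP63 kept theirs whichever sample was left out.

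CENPJ and POC1A had the smallest p-values of the genes that lengthen centrioles. CENPJ, which binds tubulin and governs centriole length (chromosome 13, 24882279 to 24922889), was at 3.20, 3.61 and 3.18 FPKM in controls and 1.33, 0.794 and 0.980 FPKM after depletion. It was left at 31.1% of the control mean (-1.62 ± 0.23, SE, adjusted p = 0.000769). POC1A, a stabilizing protein of the centriole wall, went from 11.6, 13.6 and 12.4 FPKM to 5.77, 6.76 and 4.65 FPKM (-1.13 ± 0.16, SE, adjusted p = 0.000705). CEP295, needed to turn a new centriole into a centrosome, fell by 1.47 ± 0.34 (SE, adjusted p = 0.0126), and CNTROB, a protein of daughter centrioles, by 0.58 ± 0.17 (SE, adjusted p = 0.0337). The call of CNTROB was lost without OFD1-depleted replicate 3 and without each control, with an adjusted p of up to 0.141.

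Other elongation factors did not pass, and their intervals reach well to both sides of 0 for the first 4. CETN2, a small calcium-binding protein of the centriole lumen, had 31.1, 40.1 and 28.0 FPKM in controls and 35.1, 36.3 and 34.1 FPKM after depletion. Its groups overlapped, with a log2 fold change of 0.10 (95% interval -0.22 to 0.43). CETN3 (0.01, 95% interval -0.53 to 0.55), CEP120 (0.02, 95% interval -0.35 to 0.39) and POC1B (-0.00, 95% interval -0.43 to 0.42) also overlapped. The sign of these 4 turned under some alternatives. CEP44 (-0.11), POC5 (-0.30), CEP350 (-0.39) and RTTN (-0.43) also missed the threshold.

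The genes grouped under the distal cap of the centriole were split. CCP110, the cap protein that also holds back cilia, was at 4.45, 4.69 and 4.23 FPKM in controls and 3.05, 2.30 and 3.02 FPKM after depletion (-0.67 ± 0.17, SE, adjusted p = 0.0222). Its call was lost without each control in turn, with an adjusted p of up to 0.084. Its partners CEP97 (-0.45, adjusted p = 0.218) and CEP76 (-0.16, adjusted p = 0.652) did not pass.

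**Figure D2:**
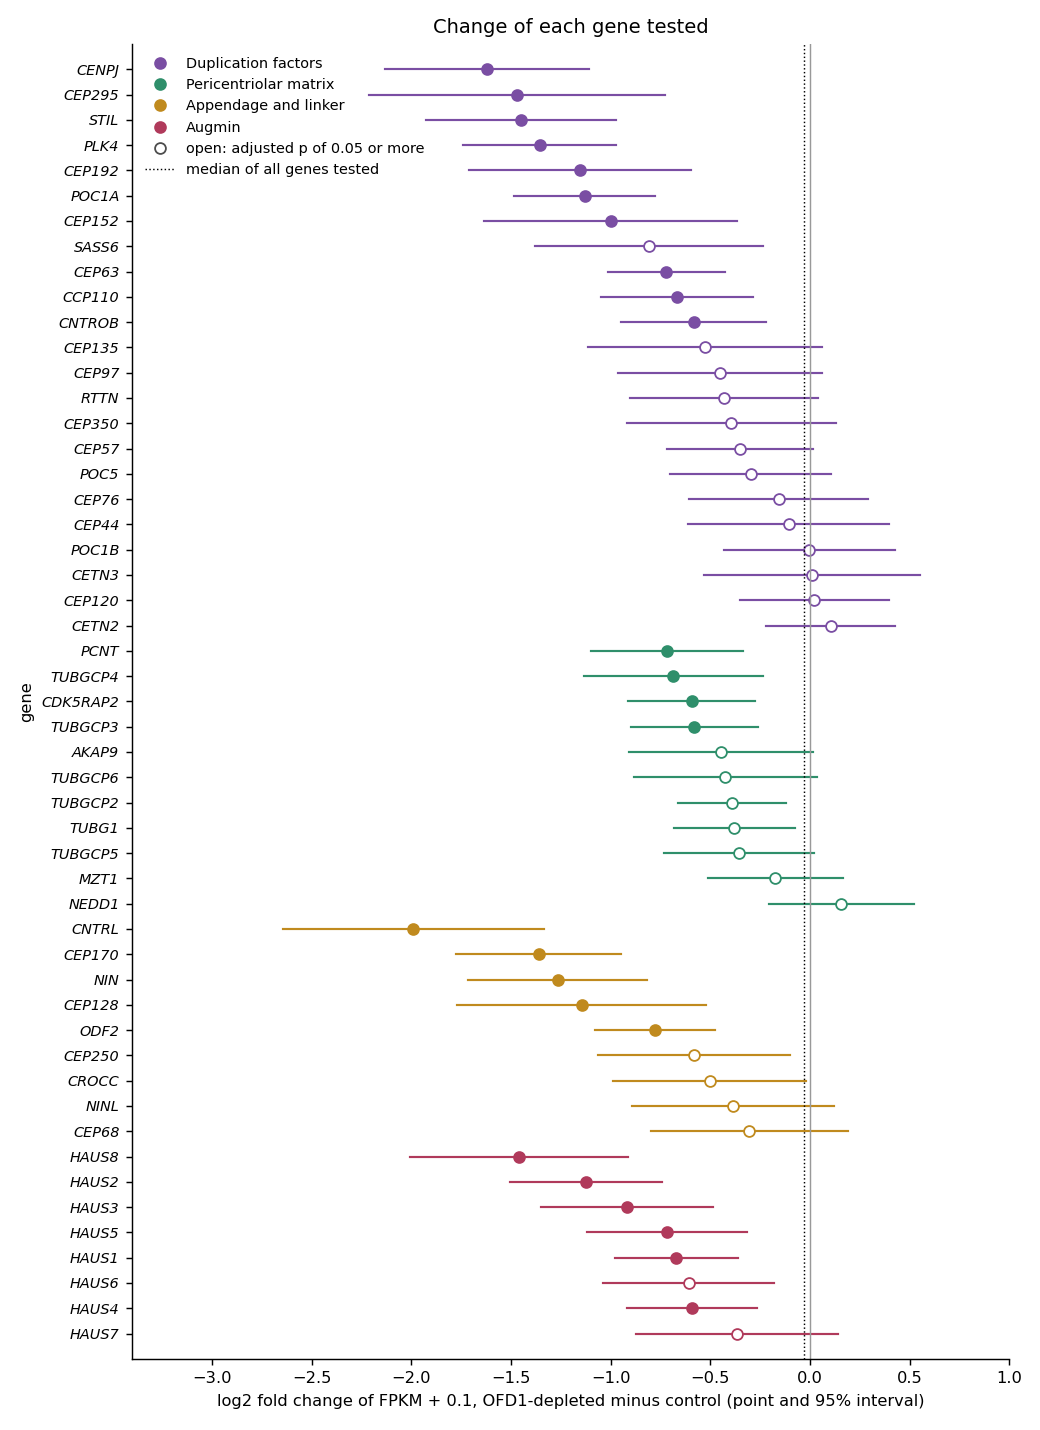
Log2 fold change of FPKM + 0.1, OFD1-depleted minus control (horizontal axis), with its 95% interval for each of the 51 genes tested (vertical axis), coloured by role, with filled points for an adjusted p below 0.05. The points run from -1.99 for CNTRL to 0.16 for NEDD1, and all filled points lie left of the dotted median of all genes at -0.03.

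The pericentriolar matrix gave the median nearest to 0, -0.42, with 4 of 11 genes lower, where 11.9% of all genes tested were. Taken sample by sample against the control mean, that ranking held only in OFD1-depleted replicate 2 (-0.66, and -0.88 for duplication factors). In replicates 1 and 3 the duplication factors lay nearer to 0 (-0.26 against -0.34, and -0.47 against -0.51). In the fit without both samples numbered 2 the median was -0.46 for the matrix and -0.50 for the duplication factors. PCNT, the large scaffold of the matrix (chromosome 21, 46324141 to 46445769), was at 6.26, 4.70 and 7.07 FPKM in controls and 3.56, 3.59 and 3.54 FPKM after depletion. The controls were the more variable group, and all lay above the depleted samples (-0.72 ± 0.17, SE, n = 3 per group, adjusted p = 0.0166). CDK5RAP2, the scaffold that activates the ring complex, went from 9.21, 9.74 and 9.17 FPKM to 6.82, 5.25 and 6.57 FPKM (-0.59 ± 0.15, SE, adjusted p = 0.0172). AKAP9, a scaffold that the Golgi shares, missed the threshold (-0.45, adjusted p = 0.176).

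NEDD1, the protein that tethers ring complexes to the centrosome, had the highest log2 fold change of the list at 0.16 (95% interval -0.21 to 0.52). Its levels were 14.5, 15.7 and 11.96 FPKM in controls and 16.2, 12.7 and 18.3 FPKM after depletion, so the groups overlapped. The matrix counts depended on single samples. They were 3, 6 and 1 without OFD1-depleted replicates 1, 2 and 3, and 0, 1 and 0 without control replicates 1, 2 and 3. Over all genes the same fits called 1309, 1741 and 1051 lower, and 904, 1020 and 867. PCNT lost its call without OFD1-depleted replicate 3, control 1 or control 3 (adjusted p of up to 0.102), and CDK5RAP2 without each control in turn (adjusted p of up to 0.0677).

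Within the gamma-tubulin ring complex, 2 of 7 genes fell, where 11.9% of all genes tested did. TUBGCP3, a core subunit, was at 7.56, 7.87 and 7.48 FPKM in controls and 5.76, 4.52 and 4.999 FPKM after depletion (-0.58 ± 0.14, SE, adjusted p = 0.0187). TUBGCP4, which fills part of the ring, was at 2.72, 2.36 and 2.42 FPKM and then 1.48, 1.37 and 1.71 FPKM (-0.69 ± 0.20, SE, adjusted p = 0.0407). Both were lost without OFD1-depleted replicate 3 or any control, TUBGCP4 also without OFD1-depleted replicate 1, with adjusted p-values of up to 0.0761 and 0.181. TUBG1, gamma-tubulin itself, had 47.8, 45.7 and 50.2 FPKM in controls and 33.6, 43.7 and 34.0 FPKM after depletion. Its highest depleted value, in replicate 2, came close to the controls, and the change missed the threshold (-0.38 ± 0.14, SE, adjusted p = 0.0832). TUBGCP2 (-0.39, adjusted p = 0.0515), TUBGCP5 (-0.36, adjusted p = 0.184), TUBGCP6 (-0.42, adjusted p = 0.197) and MZT1 (-0.17, adjusted p = 0.487) did not pass either.

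FPKM, a scale per length, also allows the subunits to be set against each other. In the controls TUBG1 and TUBGCP2 made up 35.7% ± 2.08 and 29.1% ± 1.33 of the summed level of the 7 ring genes (SD, n = 3), and TUBGCP4, TUBGCP6 and TUBGCP3 at most 5.68% each. After depletion TUBG1 stood at 35.2% ± 4.07 and TUBGCP2 at 28.5% ± 1.05, within the spread of the samples. In OFD1-depleted replicates 1, 2 and 3 TUBG1 was at 31.8%, 39.7% and 34.2%, highest in the library with the length trend. The controls were at 35.8%, 33.5% and 37.7%. Since the subunits differ in transcript length, that trend limits these shares. The sum itself was 134.5 ± 1.73 FPKM in controls and 105.0 ± 5.37 FPKM after depletion (SD, n = 3), which is 78.1% of control. All control sums were above all depleted sums. An exact permutation test (two-sided) gave p = 0.1, and 3 against 3 samples cannot give less.

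**Figure D3:**
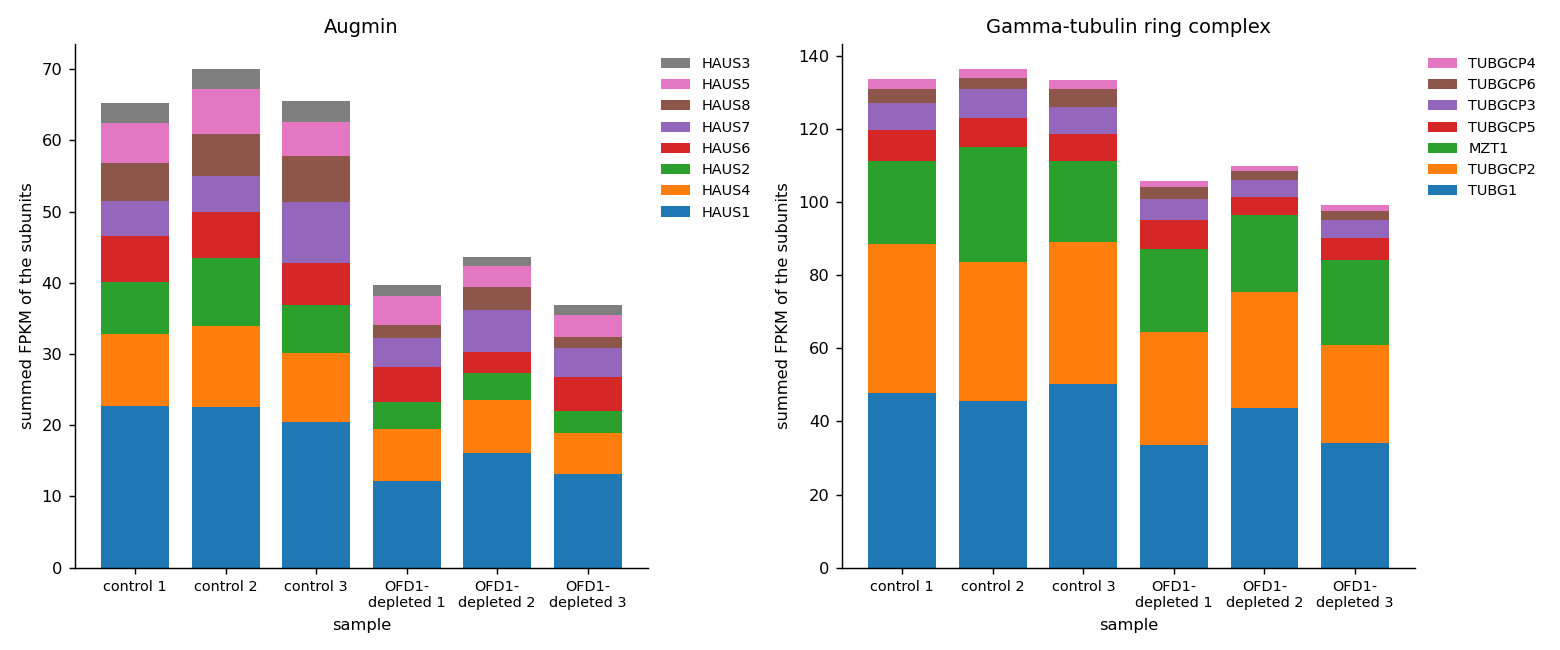
Summed FPKM (vertical axis, from 0) of the 8 augmin subunits and of the 7 genes of the gamma-tubulin ring complex in each sample (horizontal axis), stacked by gene. Augmin sums drop from 66.9 to 40.1 FPKM on average and ring complex sums from 134.5 to 105.0 FPKM, with HAUS1 and TUBG1 as the tallest blocks.

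Of the 9 appendage and linker genes 5 fell, where 11.9% of all genes tested did. The median of the 9 genes was -0.78. CNTRL, centriolin, a mother centriole protein that also acts at the midbody (chromosome 9, 121074753 to 121177610), was at 2.57, 2.38 and 2.56 FPKM in controls and 0.525, 0.379 and 0.841 FPKM after depletion. At 23.2% of control it had the lowest log2 fold change of the 51 genes (-1.99 ± 0.30, SE, n = 3 per group, adjusted p = 0.00104). NIN, ninein, anchors microtubules at the subdistal appendages. It went from 4.47, 4.81 and 4.45 FPKM to 2.33, 1.40 and 1.91 FPKM (-1.27 ± 0.20, SE, adjusted p = 0.00163).

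CEP170, another subdistal appendage protein, was the most abundant of these 9 genes (chromosome 1, 243124428 to 243255348). It was at 39.1, 36.7 and 35.6 FPKM in controls and 15.3, 10.4 and 18.6 FPKM after depletion (-1.36 ± 0.19, SE, adjusted p = 0.000563). ODF2, the base on which both sets of appendages form, went from 10.3, 9.81 and 11.6 FPKM to 6.56, 5.95 and 5.83 FPKM (-0.78 ± 0.14, SE, adjusted p = 0.00267). These 4 genes kept their calls whichever sample was left out. CEP128, which sits with ODF2 at the subdistal appendages, also fell (-1.14 ± 0.28, SE, adjusted p = 0.0182), but not without control replicate 2 or 3 (adjusted p of up to 0.0759).

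The 5 genes that fell encode proteins of the mother centriole. The linker genes CEP250 (-0.58, adjusted p = 0.095), CROCC (-0.50, adjusted p = 0.147) and CEP68 (-0.30, adjusted p = 0.4) and the ninein relative NINL (-0.39, adjusted p = 0.288) did not pass. CEP250 was called lower without both samples numbered 2 (-0.67, adjusted p = 0.0401). Appendage and linker genes were not tested against each other. CROCC is uncertain, since its near copies CROCCP2 and CROCCP3 can take its reads: the sum of the 3 differed by only -0.03 on the log2 scale. CEP170 with its copy CEP170P1 gave -1.37, close to CEP170 alone.

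Of the 8 augmin subunits 6 fell, where 11.9% of all genes tested did. All 8 had negative estimates, where 53.7% of all genes did, and the median log2 fold change was -0.70. The summed level of the complex was 66.9 ± 2.69 FPKM in controls and 40.1 ± 3.37 FPKM after depletion (SD, n = 3), or 59.9% of control. No depleted sample reached a control sample (exact permutation test, two-sided, p = 0.1, which this design cannot go below).

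HAUS8, the subunit that binds the wall of the old microtubule, fell deepest. It was at 5.38, 5.85 and 6.40 FPKM in controls and 1.83, 3.23 and 1.49 FPKM after depletion (-1.46 ± 0.25, SE, n = 3 per group, adjusted p = 0.00224). HAUS2 went from 7.35, 9.49 and 6.77 FPKM to 3.84, 3.77 and 3.02 FPKM (-1.12 ± 0.17, SE, adjusted p = 0.00125). HAUS1, the most abundant subunit, went from 22.7, 22.6 and 20.5 FPKM to 12.2, 16.2 and 13.2 FPKM (-0.67 ± 0.14, SE, adjusted p = 0.00765). These 3 kept their calls whichever sample was left out.

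HAUS3 was at 2.71, 2.87 and 3.03 FPKM in controls and 1.61, 1.32 and 1.501 FPKM after depletion (-0.92 ± 0.20, SE, adjusted p = 0.00851). HAUS4 was at 10.1, 11.3 and 9.58 FPKM and then 7.30, 7.44 and 5.81 FPKM (-0.59 ± 0.15, SE, adjusted p = 0.0193). HAUS5 was at 5.64, 6.32 and 4.71 FPKM and then 4.06, 2.93 and 3.05 FPKM (-0.72 ± 0.18, SE, adjusted p = 0.0201). All 3 were apart from their controls in each sample but less firmly called: HAUS3 was lost without control replicate 3 (adjusted p = 0.0511), HAUS4 without OFD1-depleted replicate 3 or any control (up to 0.0772), and HAUS5 without OFD1-depleted replicate 3, control 1 or control 2 (up to 0.0858).

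The last 2 subunits did not pass. HAUS6, which contacts the ring complex through NEDD1, was at 6.53, 6.51 and 5.97 FPKM in controls and 4.85, 2.97 and 4.84 FPKM after depletion (-0.61 ± 0.20, SE, adjusted p = 0.0548). HAUS7 was at 4.85, 5.05 and 8.56 FPKM and then 4.06, 5.83 and 4.08 FPKM (-0.37 ± 0.23, SE, adjusted p = 0.317). The HAUS6 groups did not overlap, while those of HAUS7 did, with control replicate 3 and OFD1-depleted replicate 2 high in their groups.

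HAUS8 made up 8.79% ± 0.85 of the augmin sum in controls and 5.35% ± 1.80 after depletion (SD, n = 3), and HAUS2 11.7% ± 1.66 and 8.82% ± 0.77. HAUS1 made up 32.8% ± 1.78 and 34.4% ± 3.37, and HAUS4 15.4% ± 0.77 and 17.1% ± 1.33. These shares are descriptions and were not tested.

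Without OFD1-depleted replicate 2 the lower genes were 10 duplication factors, 6 matrix genes, 5 appendage or linker genes and 7 augmin genes. Without both samples numbered 2 they were 8, 5, 6 and 5, and with the length trend removed 10, 3, 5 and 7. Over all genes, 1741, 1793 and 1476 were lower in these fits. Duplication factors gave 7 lower genes without any one of the controls, and augmin 4 without any one of them or without OFD1-depleted replicate 3. Over all genes, 904, 1020 and 867 were lower without control replicate 1, 2 and 3, and 1051 without OFD1-depleted replicate 3.

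Overlapping genes limit some values, since the sources do not state whether reads were assigned by strand. An expressed gene overlaps 11 of the 52, and 4 of these were called lower: CEP63 with ANAPC13, CEP295 with TAF1D, CNTROB with TRAPPC1, and TUBGCP4 with TP53BP1 and ZSCAN29. All of these partners lie on the opposite strand. TAF1D was at a mean of 40.1 FPKM against 1.45 FPKM for CEP295 and itself rose (0.48, adjusted p = 0.0296), so the 2 moved in opposite directions. TRAPPC1, at 111.8 FPKM against 8.59 FPKM for CNTROB, did not pass (0.29, adjusted p = 0.217). HAUS7 shares its locus with BGN, at 119.5 FPKM, and its value is uncertain for the same reason.

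A wider list of other centrosome genes also leaned lower, though less. Of 56 tested, 20 fell (35.7%) and 1 rose, where 11.9% of all genes were lower and 5.07% higher. The median was -0.41, and 12 of the 56 had estimates above 0, as had 5565 of all 12025 genes. With the length trend removed 18 fell and 5 rose, beside 1476 and 1594 of all genes. Without both samples numbered 2 the counts were 21 and 6, beside 1793 and 1497 of all genes. The smallest p-values among those that fell were for TACC3 (-2.15 ± 0.16, SE, adjusted p = 1.35e-05), CKAP5 (-1.40 ± 0.13, SE, adjusted p = 4.35e-05) and PLK1 (-1.36 ± 0.13, SE, adjusted p = 4.8e-05). TACC3 and CKAP5 act together on spindle microtubules, and PLK1 is the kinase of mitotic entry that expands the matrix. TACC3 was at 31.0, 37.6 and 33.8 FPKM in controls and 8.03, 8.72 and 6.17 FPKM after depletion. TUBE1, epsilon-tubulin, which stabilizes the centriole wall, was the gene that rose. It was at 2.02, 2.30 and 2.30 FPKM in controls and 3.84, 3.12 and 3.90 FPKM after depletion (0.68 ± 0.18, SE, adjusted p = 0.0237). That call was lost without OFD1-depleted replicate 1 or 3 or any control (adjusted p of up to 0.107), and TUBE1 was not called with every sample at the same total or with no filter on low values.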

How the data were processed

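RNA-seq of 6 samples was read from a table of gene-level FPKM values. The authors prepared directional paired-end libraries (the labels also name a second kit), aligned reads with HISAT2 2.0.5 to Ensembl GRCh38 and summarized them with StringTie as FPKM, which the authors deposited per sample without pooling. Gene rows were used as deposited. Sequencing depth was not given, and could not be recovered: at best 18.6% to 27.4% of low values of single-exon genes fell within 0.02 of a whole fragment, so no counting interval is given. Summed FPKM was 408302 to 414547 in controls and 433262 to 493510 in OFD1-depleted samples.

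The test covered genes averaging 1 FPKM or more across all 6 samples, on a scale of log2(FPKM + 0.1), with limma 3.58.1 in R 4.3.3 (variance trend, no block) and Benjamini-Hochberg adjustment over all genes, threshold 0.05, two-sided. The step was tested on simulated data. Levels are means ± SD. Transcript lengths came from GENCODE v44 and promoters from RefSeq (GRCh38.p14). The genes and gene lists were chosen with earlier results of these data known. Values in every sample are given for OFD1, for PLK4, STIL, SASS6, CENPJ, PCNT, CDK5RAP2, NEDD1 and TUBG1, for the 4 smallest p-values in each role and for each HAUS gene. From the other centrosome genes, up to 3 with the smallest p-values in each direction, among those past the threshold, are named. Alternatives covered the pseudocount, filter, scaling, variance model, replicate block, gene type and each sample left out. Some marker genes are not reported here.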

Additional observations from a re-analysis of the deposited data

How the results depend on the processing

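The 25 lower centrosome genes became 13 with no filter on low values and 11 with a mean of at least 5 FPKM, which left fewer genes to test, and 15 to 28 with 1 sample left out. Over all genes, array weights gave 2263 lower and 1693 higher of 12025, and no filter 823 and 260 of 28501. Leaving out 1 sample gave 867 to 1741 lower and 244 to 1077 higher. The higher count was 1497 without both samples numbered 2, 1093 with quantile normalization, 268 with the same total in every sample and 1594 with the length trend removed. The cause was not tested.

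Of 460 values of the 25 lower genes over 19 alternatives, 403 kept their call, 57 lost it and 0 changed sign. Genes near 0 changed sign: CEP76 (0.0319) and MZT1 (0.0306) without both samples numbered 2; CEP120 (-0.12), CETN2 (-0.0431) and CETN3 (-0.13) with the same total in every sample; CEP44 with array weights (0.17), without both samples numbered 2 (0.20), with quantile normalization (0.0273) and with the length trend removed (0.0277). POC1B was 0.19 with array weights, 0.05 with median-of-ratios scaling, 0.28 without both samples numbered 2, 0.00080 with pseudocount 1, 0.12 with quantile normalization and 0.0905 with the length trend removed, and CETN3 was -7.32e-05 with pseudocount 1. With 1 sample left out the ranges were -0.0731 to 0.11 for CEP120, -0.30 to 0.14 for CEP44, -0.11 to 0.21 for POC1B, -0.00796 to 0.25 for CETN2 and -0.16 to 0.34 for CETN3.

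Same-numbered samples of the 2 groups did not deviate together (r = 0.058, 0.048 and 0.011 across genes), so the numbers were not taken as pairs. With the replicate number as a block 26 centrosome genes were lower, 24 of them shared with the fit without it. The missing read depth limits the low genes most.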
